A study of Mus musculus with 2 samples.

Results

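The genes described here encode the CNC and BACH proteins that pair with MAFK, and KEAP1. They are Nfe2, Nfe2l1, Nfe2l2, Nfe2l3, Bach1, Bach2 and Keap1, 7 of the 21938 protein-coding genes of the GENCODE vM21 annotation. Their MAFK regions were all regions of the authors' optimal list whose summit, the base of highest signal, lay within 120 kb of any transcription start site (TSS) of one of these genes. This gave 35 of 16865 regions. The regions came from ChIP-seq (sequencing of DNA precipitated with an antibody to MAFK) in ES-E14, a mouse embryonic stem cell line of strain 129/Ola that the labels call male. There was a single condition with 2 biological replicates, for which the labels name no treatment and 1 origin of the cells, so their spread may be technical. The files list regions without reads, which leaves the read depth unknown, and neither gene expression nor the control experiment was analysed here. A region near a gene does not show that the gene is regulated through it.

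Small MAF proteins such as MAFK have a DNA-binding leucine zipper but no activation domain, and as homodimers they repress. CNC proteins bind DNA as heterodimers with small MAFs: NFE2, the platelet and erythroid factor, NRF1 (gene Nfe2l1), which drives proteasome genes, NRF2 (Nfe2l2), which drives antioxidant and detoxification genes, and NRF3 (Nfe2l3). BACH1, which is released from DNA by haem, and BACH2, a regulator of B lymphocytes, use the same small MAF partners and the same elements to repress. KEAP1 is the cysteine-rich sensor that presents NRF2 to a cullin ligase for degradation until oxidants or electrophiles modify it. The shared recognition site is the antioxidant response element (ARE), which overlaps the MAF recognition element (MARE) and the AP-1 site.

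Sequences near 12 summits are shown, and all but the one at Snx10 hold an example of such elements. These windows were picked and do not stand for all 35 regions, of which 16 held the ARE core. Regions without an element were mostly left out, among them those with signals of 16.6 and 21.3 at the Keap1 start. Each is 61 bases of the GRCm38 (mm10) reference, 5′ to 3′, which is of strain C57BL/6J and not of the cells' own strain. Capitals mark the element found within 50 bp of the summit, which is the 10-base composite of an AP-1 site followed by GCA where present and otherwise the 9-base ARE core TGACNNNGC or TGAGNNNGC. Windows with an element are centred on that element, which lay up to 31 bp from the summit. The Nfe2 summit, base 103177059, is therefore just outside its window. The window at Snx10 held neither element and is centred on the summit. The last sequence is the region at the Nfe2l1 start, which the optimal list did not hold.
Keap1 start, chr9:21238814-21238874, plus strand: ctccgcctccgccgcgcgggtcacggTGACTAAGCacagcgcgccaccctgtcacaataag
Nfe2l2 intron 1, chr2:75703951-75704011, plus strand: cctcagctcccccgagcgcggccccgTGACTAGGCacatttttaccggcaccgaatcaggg
Nfe2l2 distal, chr2:75610697-75610757, plus strand: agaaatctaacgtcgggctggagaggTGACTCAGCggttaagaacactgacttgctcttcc
Nfe2l1 distal, in Skap1, chr11:96713757-96713817, minus strand: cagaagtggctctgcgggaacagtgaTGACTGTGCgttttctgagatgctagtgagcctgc
Nfe2l1 upstream, toward Cdk5rap3, chr11:96887108-96887168, minus strand: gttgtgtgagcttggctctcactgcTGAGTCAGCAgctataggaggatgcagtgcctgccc
Nfe2 distal, toward Smug1, chr15:103176998-103177058, plus strand: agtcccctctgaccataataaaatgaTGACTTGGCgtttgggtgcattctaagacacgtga
Nfe2l3 distal, at Snx10, chr6:51544407-51544467, plus strand: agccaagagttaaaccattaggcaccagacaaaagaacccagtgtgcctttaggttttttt
Bach1 intron 1, near the start, chr16:87700076-87700136, minus strand: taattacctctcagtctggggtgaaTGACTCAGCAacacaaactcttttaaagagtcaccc
Bach1 intron 1, further in, chr16:87713157-87713217, plus strand: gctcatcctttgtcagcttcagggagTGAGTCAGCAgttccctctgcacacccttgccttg
Bach2 intron 1, chr4:32249882-32249942, minus strand: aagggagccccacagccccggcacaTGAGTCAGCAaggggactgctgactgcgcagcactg
Bach2 distal, toward Mdn1, chr4:32656192-32656252, minus strand: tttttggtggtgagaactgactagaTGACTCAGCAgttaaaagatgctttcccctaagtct
Nfe2l1 start, conservative list, chr11:96830113-96830173, plus strand: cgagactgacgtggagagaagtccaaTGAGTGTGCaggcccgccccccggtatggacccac
Both Bach1 windows, both Bach2 windows and the Nfe2l1 upstream window carried the full composite. The Keap1, Nfe2l2, Nfe2 and Skap1 windows carried the ARE core without the composite, with differing bases at its 3 free positions.

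Taken by gene, the 35 regions were 8 at Nfe2l2, 7 at Bach2, 6 at Nfe2, 5 each at Bach1 and Keap1, 3 at Nfe2l1 and 1 at Nfe2l3. The median protein-coding gene had 2 regions within 120 kb of a TSS (quartiles 1 and 4). Overlapping regions made up 5 pairs, so the 35 regions were 30 separate sites, and 10 of 35 regions overlapped another, against 4.04% of the optimal list. The deposited signal of a region is a score of unstated scale, used here only to describe and rank regions. Its median was 22.4 over the 35 regions and 27.9 over the optimal list (quartiles 19.1 and 48.4), and 12 of the 35 lay above the list's median. The highest was 279.7 and the lowest 4.87. Signals above 75 were found at 6 of 35 regions, against 13.8% of the list.

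The strong regions were spread over the genes: Nfe2l1, Keap1, Nfe2l3 and Bach2 had 1 region each above 75, and Bach1 had 2. Nfe2l2 and Nfe2 had none. By best signal within 120 kb, Nfe2l1 stood above 98.0% of protein-coding genes, Keap1 above 89.8%, Bach1 above 89.0% and Nfe2l3 above 82.2%. Bach2 stood above 72.9%, Nfe2 above 50.3% and Nfe2l2 above 34.6%, with genes lacking a region counted as lower. Among genes with a region within 120 kb, the median best signal was 54.5. A member was the nearest protein-coding gene for 13 of the 35 regions, namely for 5 at Bach2, 4 at Bach1, 3 at Keap1 and 1 at Nfe2l2, and for none at Nfe2, Nfe2l1 or Nfe2l3. Within 10 kb of a member TSS there were 8 regions with a median signal of 21.8, and between 10 and 50 kb another 8 with a median of 21.5. The 19 regions at 50 to 120 kb had a median of 22.9.

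**Figure D1:**
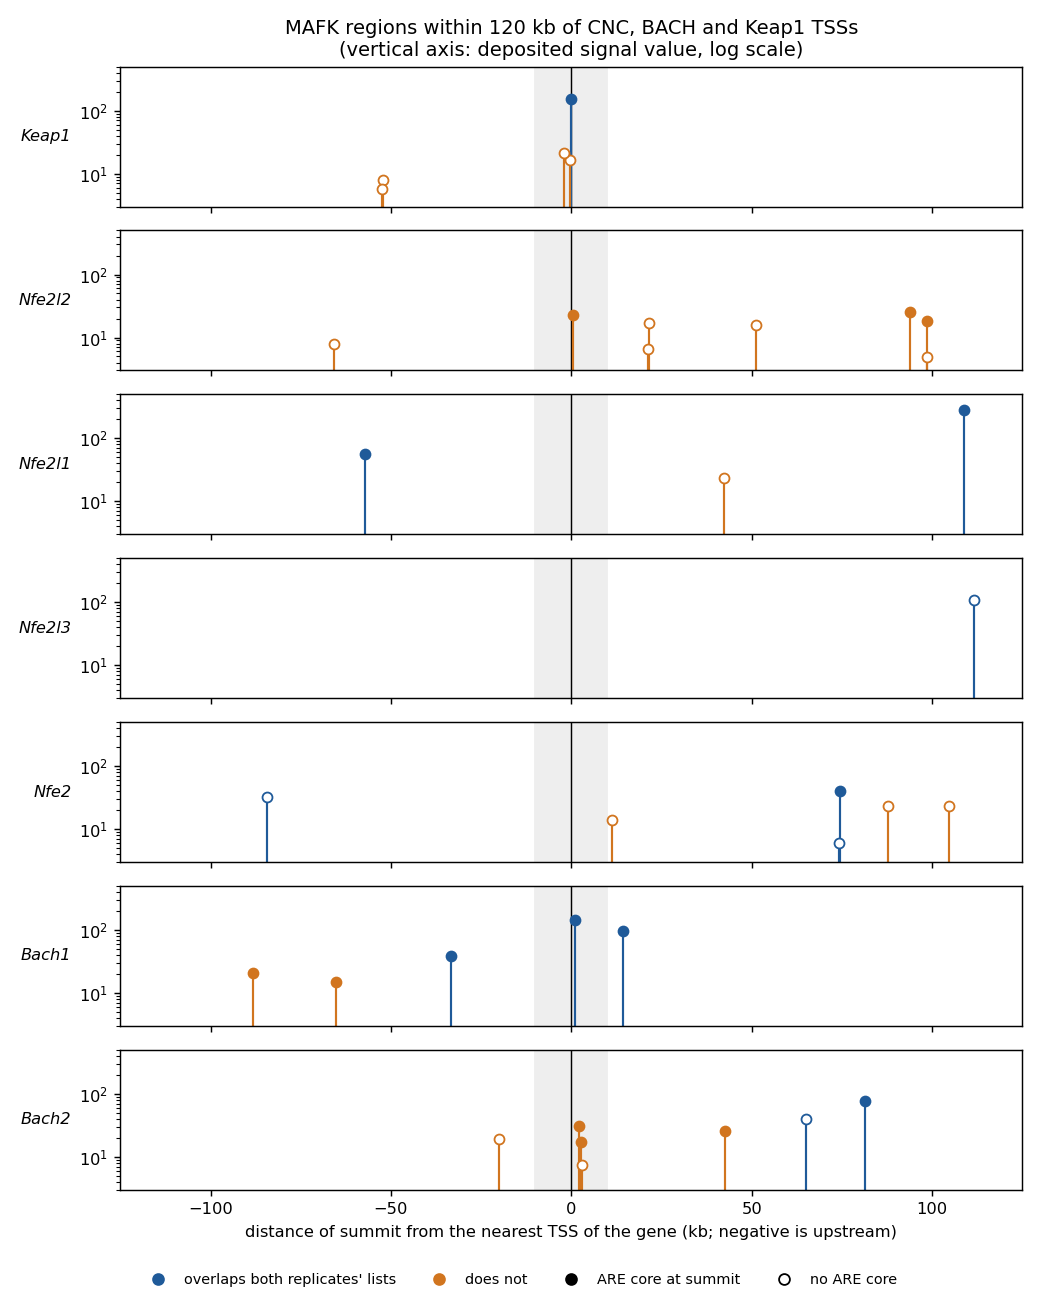
Signal of each MAFK region (deposited score, log axis) against the distance of its summit from the nearest TSS of the gene (kb, negative upstream), 1 panel per gene. Each point is 1 of the 35 regions. Blue points overlapped both replicates' lists, orange points did not, and filled points held the ARE core within 50 bp of the summit. Grey marks 10 kb to either side of the TSS. Bach1 and Keap1 have a point above 100 close to a TSS, whereas the points above 75 at Nfe2l1, Nfe2l3 and Bach2 lie more than 80 kb away.

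Counted by gene, 2 of 7 members, Nfe2l2 and Keap1, had a region summit no more than 1 kb from a TSS, as did 8.66% of protein-coding genes. Bach1 joined them within 2 kb (3 of 7, against 12% of genes) and Bach2 within 10 kb (4 of 7, against 26.9%). Nfe2l1 and Nfe2 had their first summit within 50 kb (6 of 7, against 59.3%) and Nfe2l3 within 120 kb (7 of 7, against 78.8%). With 7 genes these counts are descriptions, and beyond 10 kb most genes of the genome had a region. Distances ran to any TSS, and a gene with more TSSs has more places to be near a region. The members had 2 to 11 TSSs, and the median gene 3. By the gene's 5′ end alone, 3 of 7 members, Nfe2l2, Bach1 and Keap1, had a summit within 10 kb, against 20.1% of genes.

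Keap1, the gene for the NRF2 sensor, had the strongest promoter-proximal region of these genes. It lies on the minus strand of chromosome 9, from 21229730 to 21239361, and the region was chr9:21238739-21238955. The summit was 502 bp inside the gene and 46 bp upstream of an alternative Keap1 start, in intron 1 of the principal transcript and in an exon of another Keap1 transcript. Its signal was 150.7 in the pooled list. The relaxed list of replicate 1 gave it 68.9 and that of replicate 2 gave it 83.6. Both values were near the top of their own list, above 99.7% and 99.8% of its regions. Of all protein-coding genes, 98.7% had a lower best signal within 10 kb, or none. The region was rich in CpG, with 30 CpG sites and 76.0% GC, and carried the ARE core shown above.

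The Keap1 start had a pair of weaker neighbours. One, chr9:21239562-21239857, had a signal of 16.6 and lay 349 bp upstream of the gene, with 72.6% of its bases masked as repeats. Its score in the irreproducible discovery rate (IDR) procedure was 538, where 537 was the lowest of the list. The procedure keeps regions that rank alike in paired lists. A place in the optimal list does not by itself show agreement of the replicates, as 34 of the 35 regions matched the relaxed list of replicate 1. The other neighbour, chr9:21241381-21241676, had a signal of 21.3 and lay 2168 bp upstream. Neither held an ARE core within 50 bp of the summit, and neither overlapped both replicates' own lists. Having 3 or more regions within 10 kb, with overlapping regions counted separately, was true of Keap1 and Bach2, and of 2.17% of genes. The 3 at Bach2 included an overlapping pair and lay more than 10 kb from the gene's 5′ end. The remaining Keap1 regions were an overlapping pair with signals of 8.07 and 5.66 at the start of Cdkn2d, a cyclin-dependent kinase inhibitor gene.

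Nfe2l2, the gene for NRF2, had the most regions of the 7 genes, all of them of low or middling signal. It lies on the minus strand of chromosome 2, from 75675513 to 75704641. The 8 regions had signals of 4.87 to 25.4 with a median of 16.4, all below the median of the optimal list. With overlapping regions counted separately, 95.4% of genes had fewer regions within 120 kb. Merged, the 8 regions made 6 separate sites, the same number as the 7 regions of Bach2. None of the 8 overlapped both replicates' own lists. The region at the start, chr2:75703807-75704102, had its summit in intron 1, 534 bp downstream of a TSS and 686 bp inside the gene's 5′ end, with 29 CpG sites and 67.2% GC. Its signal was 22.4 in the pooled list. Relaxed signals were 15.3 in replicate 1 and 8.55 in replicate 2, above 97.2% and 94.1% of the regions of those lists. It was in the thresholded list of replicate 1 and not in that of replicate 2.

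The strongest Nfe2l2 region, chr2:75610577-75610872 with a signal of 25.4, lay 93764 bp downstream between genes, with Hnrnpa3, an RNA-binding protein gene, as the nearest protein-coding gene. Its ARE core was 2 bp from the summit, and 58.8% of its bases were masked as repeats in the reference. Another 2 regions formed an overlapping pair in intron 1 with signals of 17.1 and 6.46, and held no ARE core at the summit. A region toward Agps, with a signal of 7.89, gave the widest split between replicates of the 34 member regions matched in both: it stood above 89.4% of regions in replicate 1 and 23.2% in replicate 2.

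Nfe2l1, the gene for NRF1, had the highest signal of the 35 regions and no optimal region at its own start. It lies on the minus strand of chromosome 11, from 96817414 to 96829968. The strongest region, chr11:96713645-96713933, had a signal of 279.7, above 99.3% of the optimal list. The replicates gave 146.1 and 134.3, above 99.95% and 99.96% of their relaxed lists. This summit was 108924 bp downstream of the nearest Nfe2l1 TSS, in intron 9 of Skap1, a T-cell adaptor gene, and in an exon of the long non-coding RNA 2010300F17Rik. It held the ARE core and no composite.

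The nearest Nfe2l1 region, chr11:96780280-96780575, had a signal of 23.8 and lay 42297 bp downstream and 2869 bp from a TSS of Snx11, a sorting nexin gene. The third, chr11:96886988-96887283, had a signal of 55.9 and overlapped both replicates' lists. It was 57168 bp upstream and was the only one of the 35 to match the 13-base T-MARE palindrome, the consensus for MAF dimers, at every position. In the optimal list as a whole, 2.14% of regions did so.

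A region at the Nfe2l1 start was held by other deposited lists. It was chr11:96830024-96830319, with its summit 204 bp upstream of the gene and the ARE core shown above. Its signal was 17.2 in the authors' conservative list and 17.2 in the list of both replicates from their second processing run. Its IDR score was 540 in the conservative list and 693 in that second-run list. In the relaxed list of the pooled replicates it stood above 95.0% of regions. In the relaxed lists of replicates 1 and 2, the strongest region within 10 kb of an Nfe2l1 TSS was another one, with signals of 6.27 and 9.52. Neither replicate's own thresholded list had a summit within 10 kb of an Nfe2l1 TSS. Whether Nfe2l1 counts as having a promoter region therefore rests on which list is read.

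Nfe2l3, the gene for NRF3, had 1 region in the optimal list. The gene is on the plus strand of chromosome 6, from 51432670 to 51458768, and the region, chr6:51544364-51544528, was 111688 bp away, near the edge of the distance used. It was 86 bp from a TSS of Snx10, another sorting nexin gene, in intron 1. The signal was 107.3, and the replicates gave 48.2 and 57.5, above 99.4% and 99.6% of their lists. It was the strongest of the 35 regions without an ARE core, and had none within 300 bp of the summit. Its best T-MARE match had 5 mismatches, whereas 61.9% of the optimal list came within 3. Within 10 kb of an Nfe2l3 TSS, the best relaxed region of the pooled replicates had a signal of 5.23 and stood above 55.5% of that list. Other deposited lists held further regions within 120 kb, with and without the ARE core. One with the core, chr6:51523853-51524148, lay 91252 bp away. Its signal was 19.9 in the conservative list and 19.9 in the second run's list of both replicates.

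Nfe2, whose protein is best known from platelets and red cells, had 6 regions and none within 10 kb. It lies on the minus strand of chromosome 15, from 103248212 to 103258403. The nearest, chr15:103239948-103240243, had a signal of 13.8 and was 11369 bp away but 280 bp from a TSS of Cbx5, the gene for heterochromatin protein HP1-alpha. It was the only one of the 35 with no matching region in the relaxed list of replicate 1. The strongest, chr15:103176911-103177206, had a signal of 40.9 and lay 74406 bp downstream toward Smug1, a DNA repair gene. Both replicates' lists held it, with relaxed signals of 22.3 and 18.5. It was the only Nfe2 region with an ARE core within 50 bp of the summit. Other Nfe2 regions held a core farther out, the closest at 60 bp from the summit. Another 2 regions were within 1 kb of a TSS of Smug1 and of the long non-coding RNA D930007P13Rik, with signals of 22.9 each.

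Bach1 and Bach2 encode the repressors of the group. Bach1 lies on the plus strand of chromosome 16, from 87698945 to 87733346, and all 5 of its regions held the ARE core. The strongest, chr16:87700011-87700202, was in intron 1, 1122 bp from a TSS. Its signal was 145.3 in the pooled list and 64.5 and 83.0 in the replicates, above 99.6% and 99.8% of their lists. Best signals within 10 kb at or above that of Bach1 were found at 324 genes, or 1.48%. A second region of intron 1, chr16:87713072-87713251, was 14172 bp from a TSS with a signal of 96.0, and 40.8 and 55.3 in the replicates. Both carried the composite and both overlapped the lists of both replicates.

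The other Bach1 regions lay upstream. At 33477 bp the signal was 38.9, with 2 mismatches to the T-MARE and an overlap with both replicates' lists. At 88202 bp it was 20.7, again with 2 mismatches. At 65305 bp it was 15.03, and this region carried the composite although neither replicate's list held it. It stood above 80.3% of relaxed regions in replicate 1 and 96.2% in replicate 2.

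Bach2 is a long gene on the plus strand of chromosome 4, from 32238804 to 32586108, and 5 of its 7 regions were in its own introns. The group within 10 kb of a TSS was in intron 1. Its strongest, chr4:32249765-32250060, had a signal of 30.8 and a composite centred on the summit itself, 2149 bp from an alternative TSS and 11109 bp from the gene's 5′ end. Neither replicate's thresholded list held it, and the relaxed signals were 11.5 and 18.4, above 96.1% and 97.9% of their lists. An overlapping pair beside it had signals of 16.9 and 7.29. By the 5′ end alone, Bach2 would have no region within 10 kb. The strongest Bach2 region, chr4:32656209-32656299 with a signal of 77.5, was 81313 bp from the nearest Bach2 TSS and 875 bp from one of Mdn1, a ribosome assembly gene. It carried the composite, had 2 mismatches to the T-MARE and overlapped both replicates' lists.

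**Figure D2:**
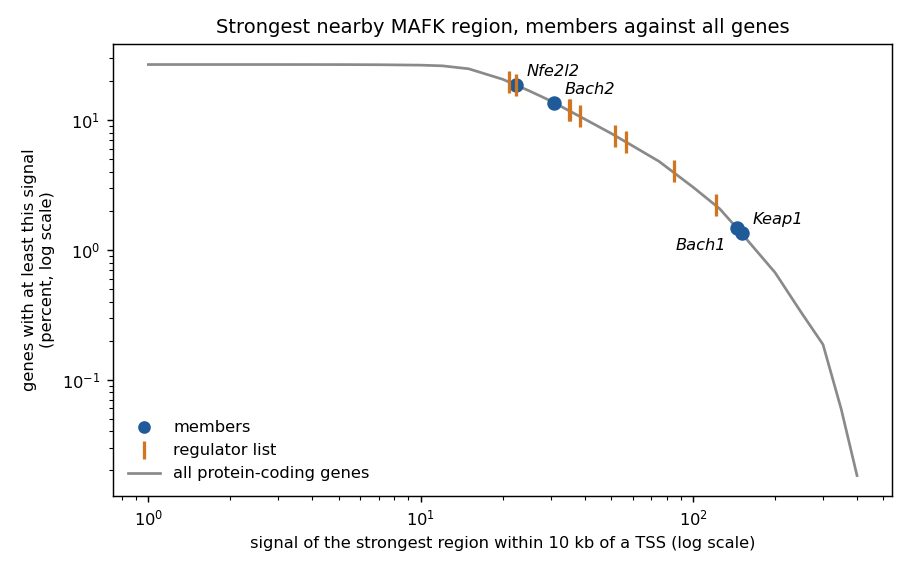
Percent of protein-coding genes (vertical, log axis) whose best MAFK signal within 10 kb of a TSS reached the value on the horizontal axis (deposited score, log axis). Dots on the curve are members with a region, ticks are the 9 regulator genes with one. Keap1 and Bach1 lie in the lower tail of the curve, at 150.7 and 145.3, Bach2 at 30.8 and Nfe2l2 at 22.4 lie left of the median of genes with a region, 31.3.

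Sequence elements on either strand were counted up to 50 bp to each side of the summit, and in windows of the same width 1000 bp to either side. The ARE core was found at 16 of 35 member regions (45.7%), against 60.3% of the optimal list and 7.15% of flanking windows. Without replicate 2, in the list of replicate 1 alone, the share was 71.4% (10 of 14), against 69.1% of that list. Its direction relative to the list thus turned, but by a small margin on few regions. Without replicate 1 it was 55%, against 66.4%. The core followed by A was found at 10 (28.6%, against 47.3% of the list). The composite was found at 6 (17.1%, against 28.2% of the list and 0.0891% of flanks). The composite contains the ARE core, the AP-1 site and the MAF core, so these counts overlap.

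The MAF core TGCTGA was at 12 member regions (34.3%, against 62.8% of the list), and the AP-1 site, TGACTCA or TGAGTCA, at 11 (31.4%, against 37.8%). The T-MARE with at most 2 mismatches was at 6 (17.1%, against 39.2%). The related C-MARE palindrome, with the same allowance, was at none, against 1.62% of the list. In the optimal list, every share but that of the C-MARE was above the flanks and below the whole list. No test was made on the 35 regions, which share loci and were chosen by gene.

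The regions with an ARE core were the stronger ones. The 16 with it had a median signal of 34.9, and the 19 without it 16.6. In the whole list the medians were 32.7 with the core and 22.5 without. Among the 12 member regions above the list's median signal, 9 held the core (75%, against 71.2% of the list above that median). Among the 23 at or below it, 7 did (30.4%, against 49.4%). These 23 include the weaker region of each of the 5 overlapping pairs, none of which held the core. The composite was at 5 of the 12 above the median (41.7%, against 37.4% of the list) and at 1 of the 23 at or below it (4.35%, against 19.1%).

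**Figure D3:**
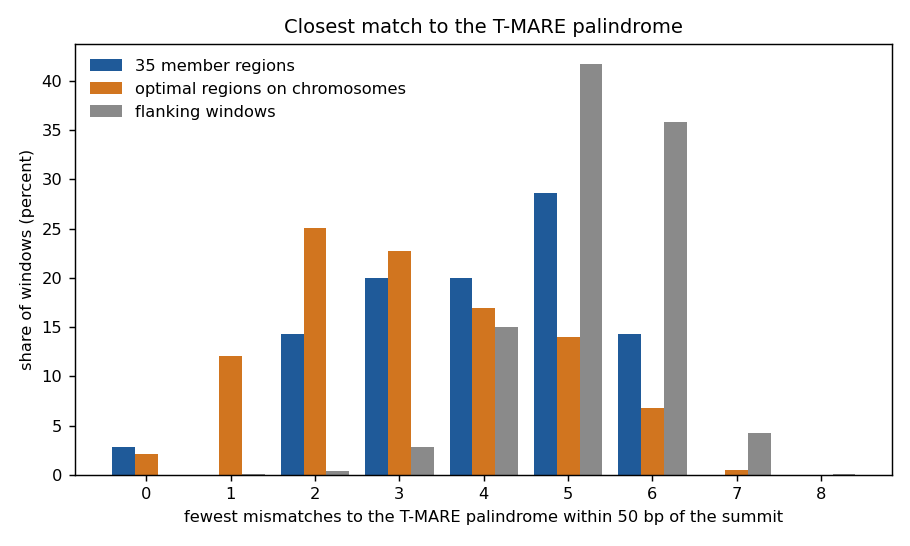
Percent of regions or windows (vertical) by the number of mismatches of the best T-MARE match within 50 bp of the summit (horizontal). Bars are the 35 member regions, the optimal regions and the flanking windows. The T-MARE was matched with at most 3 mismatches at 13 member regions, or 37.1%, against 61.9% of optimal regions and 3.22% of flanking windows.

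By location, 11 of 35 member summits (31.4%) were within 1 kb of a TSS of any gene, against 15.3% of the optimal list. Introns held 9 (25.7%, against 41.6%) and intergenic sequence 14 (40%, against 39.4%). An exon held 1 (2.86%, against 3.71%). Of these 11, 3 were within 1 kb of a TSS of a member, at Keap1 and Nfe2l2, and the other 8 were at TSSs of other genes. The regions at Keap1 and Nfe2l2 starts and at D930007P13Rik were the 3 with 25 or more CpG sites (8.57%, against 1.75% of the list).

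Of the 35 regions, 12 overlapped the thresholded lists of both replicates (34.3%, against 35.4% of the optimal list), a share near that of the list. The list of replicate 1 was overlapped by 15 regions, that of replicate 2 by 19, and neither by 13. The shares of the optimal list for these 3 counts were not computed, so they only describe the 35 regions. These lists come from the authors' second processing run, so the comparison crosses both runs. The rule applied to each replicate's own list gave 14 of 7748 regions in replicate 1 and 20 of 9541 in replicate 2. Of the 12 shared regions, 3 each were at Bach1 and Nfe2, 2 each at Bach2 and Nfe2l1, 1 at Keap1 and 1 at Nfe2l3. Those at Nfe2 included an overlapping pair with signals of 40.9 and 5.92, which had the same match in each replicate's relaxed list. The 12 are thus not all separate sites. The median signal of the 12 was 66.7, and that of the other 23 was 17.1. Outside the 12 no region exceeded 30.8.

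In the relaxed lists, which include background, 34 of 35 regions had a match in both replicates. The percentile of the matched regions in their own list differed between replicates by a median of 1.49 points, and by at most 66.2 points, at the Agps side of Nfe2l2. Replicate 1 had the higher percentile at 14 of the 34, among them 6 of the 8 regions of Nfe2l2 and none of the 5 of Bach1. Most overlapping pairs had the same match in both replicates, so these figures count some replicate values more than once. The weaker region of such a pair took the rank of its neighbour's match. For the strongest region of each gene, the mean percentile over the replicates was 99.75 ± 0.10 at Keap1, 95.3 ± 2.8 at Nfe2l2 and 99.5 ± 0.16 at Nfe2l3 (SD, n = 2). It was 99.95 ± 0.0036 at Nfe2l1, 98.0 ± 0.24 at Nfe2, 99.7 ± 0.12 at Bach1 and 99.2 ± 0.13 at Bach2. The Nfe2l2 region had the lowest rank and the widest spread of these.

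**Figure D4:**
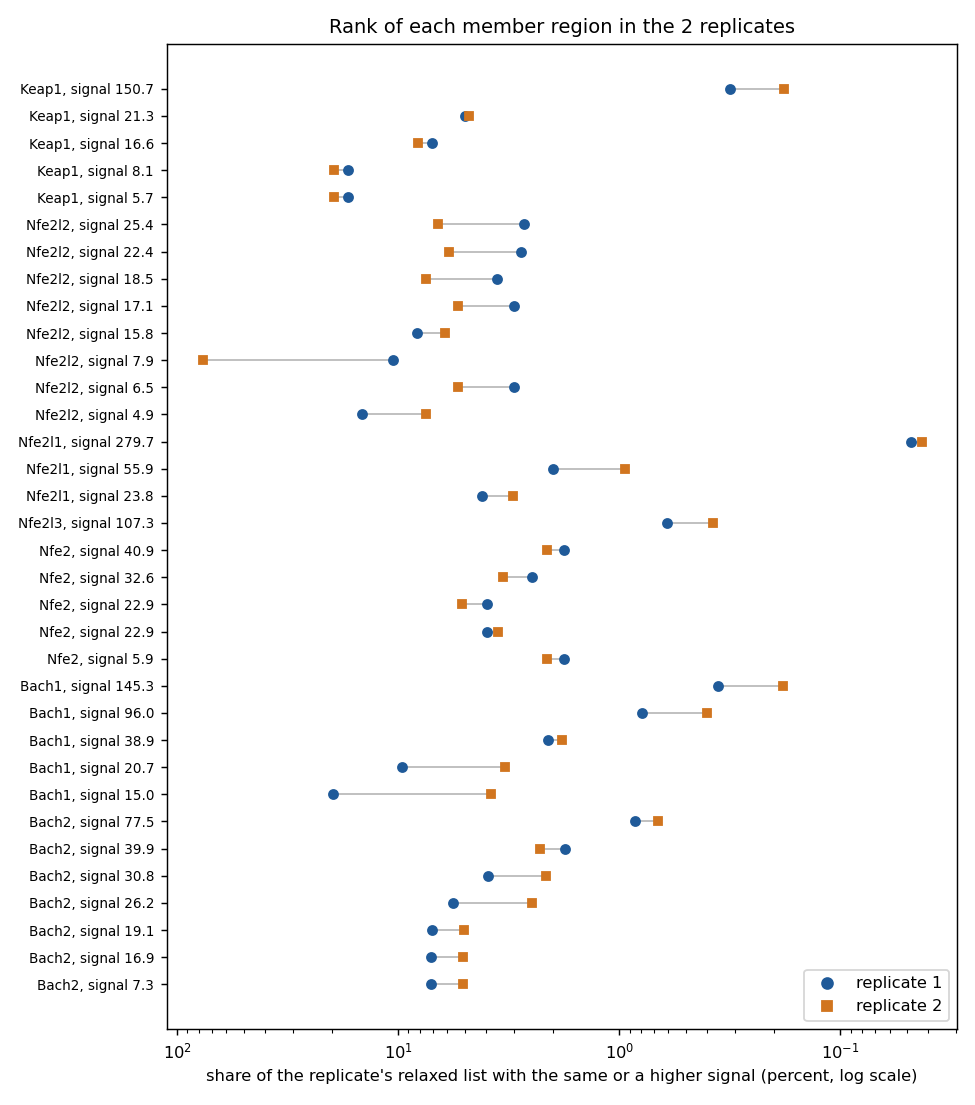
Percent of each replicate's relaxed list with the same or a higher signal than the member region (horizontal, log axis, strongest ranks to the right), 1 row per region for the 34 matched in both. Blue circles are replicate 1, orange squares replicate 2, and a line joins the 2 values of a region. Most overlapping regions shared a match, so some rows repeat the same values. The longest gap is that of the Nfe2l2 region of signal 7.9, toward Agps, which was above 89.4% of replicate 1 and 23.2% of replicate 2.

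The count of members with a summit within 10 kb, 4 of 7 in the optimal list, depended on the list. It was 5 in the conservative list and 5 in the second run's list of both replicates, each adding Nfe2l1, where 25.8% and 26.9% of genes had one. In the list of replicate 2 alone it was 3, with Bach1, Bach2 and Keap1 (17.4% of genes), and in that of replicate 1 alone 3, with Nfe2l2, Bach1 and Keap1 (13.7% of genes). Bach1 and Keap1 were in all of these, and were the 2 that remained when only regions in both replicates' lists were counted (11.2% of genes).

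A list of 24 genes for regulators of these factors was read in the same way. A summit within 10 kb was found at 9 of 24 (37.5%), against 26.9% of all protein-coding genes. Their best signals had a median of 38.3, and 8 of the 9 regions held the ARE core, against 60.3% of the optimal list and 71.2% of its regions above the median signal. The highest, 121.3, was 237 bp from a TSS of Sqstm1, the autophagy receptor p62 that binds KEAP1. It carried the composite and both replicates' lists held it, though the nearest TSS was that of Mgat4b. Next was Cul1, the scaffold of the SCF ligase that uses beta-TrCP against NRF2, with 84.8 and a perfect T-MARE. Park7, which encodes DJ-1, had 57.0 and no ARE core within 50 bp of the summit.

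Sel1l, a partner of the HRD1 ligase, had 51.8, Ngly1, the N-glycanase of NRF1, had 38.3 at a region nearer to Oxsm, and Vcp, the ATPase that extracts proteins from the membrane, had 35.1. Syvn1, which encodes HRD1 itself, and Ddi2, the protease that cleaves NRF1, had no summit within 10 kb. Cul3, the scaffold of the KEAP1 ligase, had 35.3 at 4115 bp from a TSS. Fbxw7, an SCF substrate receptor, had 22.3. Palb2, which encodes a KEAP1-binding DNA repair protein, had 21.1. The other genes of the list had none either: Rbx1, Dpp3, Pgam5, Btrc, Fbxw11, Gsk3a, Gsk3b, Skp1a, Crebbp, Ep300, Ogt, Fbxo22 and Fbxl17.

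The outermost regions inside the 120 kb limit were those of Nfe2l3 at 111688 bp, with a signal of 107.3, and of Nfe2l1 at 108924 bp, with 279.7.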

How the data were processed

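The deposited files are region lists on mm10, per the labels. Per the deposited text notes, a first run gave relaxed lists of each replicate and of their pool, and optimal and conservative IDR lists, and a second run from other alignments gave the replicates' thresholded lists and a joint one. No aligner or peak caller is named (not given in the sources used here). The signal is a score the authors deposited without stating its scale, so it was only ranked. The deposited significance is a −log10 q-value and was not tested on. Summits came from the deposited summit offset, another column of the files.

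Python 3.11.15, numpy 2.4.6 and pysam 0.24.0 were used, with sequence from GRCm38, genes from GENCODE vM21 and overlaps of at least 1 bp. Coordinates are 1-based. Element and location shares used the 16836 optimal regions on assembled chromosomes, which left out 29. The percentile of a region is the percent of its list with lower signal. The element search recovered all sites planted in simulated sequence. The members, gene lists and elements were chosen with earlier results of these data known, and no test was made. Named were all members, their regions within 10 kb, the strongest and nearest region of each, the genes nearest to these, the regions just inside the 120 kb limit (the one just outside is not reported here), and up to 8 regulators of highest signal. Other regions and genes were named after their values were seen. Alternatives changed the list, threshold, distance, TSS set, window and overlap.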

Additional observations from a re-analysis of the deposited data

How the results depend on the processing

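No paired analysis was possible because there was 1 group. The count of members within 10 kb, 4, was 2 for regions in both replicates' lists (11.2% of all genes) and 7 within 120 kb (78.8%). It was 3 without replicate 1 (17.4% of all genes) and 3 without replicate 2 (13.7%). Other settings gave 3 to 6. The regulators, 9 of 24, were 5 within 2 kb (12% of all genes), 19 within 50 kb (59.3%) and 23 within 120 kb (78.8%). They were 8 without replicate 1 (17.4% of all genes) and 7 without replicate 2 (13.7%). The 35 regions were 14 to 20 with 1 replicate left out, 12 in the strongest 50% of the list, 12 in both replicates' lists, 8 within 10 kb and 16 within 50 kb. The ARE core share, 45.7%, was 55% without replicate 1 (66.4% of that whole list) and 71.4% without replicate 2 (69.1%). It was 75% in the strongest 50% (71.2% of all such regions), 66.7% in both replicates' lists (73.1%), 31.4% within 25 bp of the summit (48.7%) and 60% over whole regions (68.4%). The 12 regions in both replicates were 34 by the relaxed lists, where 97.8% of optimal regions overlapped both.

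Percentiles of the strongest regions depended on the list ranked, as the relaxed lists are far longer. The optimal, pooled relaxed and replicate relaxed lists gave 44.3, 96.8 and 93.4 to 97.3 at Nfe2l2, and 99.3, 99.96 and 99.95 to 99.96 at Nfe2l1. They gave 92.4, 99.6 and 99.4 to 99.6 at Nfe2l3, and 68.4, 98.2 and 97.9 to 98.2 at Nfe2. They gave 95.7, 99.8 and 99.6 to 99.8 at Bach1, 86.8, 99.3 and 99.1 to 99.3 at Bach2, and 96.0, 99.8 and 99.7 to 99.8 at Keap1. The cause of these changes was not tested beyond what each list's length and threshold fix. Depth is unknown, so absence from a list does not show absence of binding.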
